A study of Homo sapiens with 40 samples.

Results

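A pair of engineered RKO lines was compared after both had received the same non-targeting small interfering RNA (siRNA). The comparison set the 4 libraries of the line with guides against IGF2BP3 (sgIGF2BP3 siControl) against the 4 libraries of the line with guides against IGF2BP2 (sgIGF2BP2 siControl). These 8 libraries, of 40 in the series, were chosen by their labels alone, with no measured value. The comparison asks how far the lines differed before either IGF2BP gene was removed.

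RKO is an established human colorectal carcinoma cell line. The cells carried Cas9 under a doxycycline-inducible promoter together with GFP, and each line received a lentiviral vector with a pair of guide RNAs and the blue fluorescent protein eBFP2. The eBFP2-positive cells were sorted, so a line is a sorted population, and the labels do not say that it grew from 1 cell. Both siControl groups were transfected with 75 nM of non-targeting siRNA for 48 hours, no doxycycline is named for them, and their treatment field reads "no treatment". The same lines given DMSO, the solvent control of the doxycycline arm, were compared in the same way and share no library with the siControl groups (sgIGF2BP3 DMSO and sgIGF2BP2 DMSO, 4 libraries each). A line with guides against AAVS1, a non-coding control locus, was used with DMSO as an outside reference (sgAAVS1 DMSO, 4 libraries). Values are also given for each line with doxycycline (250 ng/mL, 72 hours). Each IGF2BP line was further given an siRNA pool against its own target (75 nM, 48 hours). In those groups the IGF2BP lines were depleted of different genes, which cannot be told apart from the line. All cells had been labelled with 4-thiouridine (250 µM, 2 hours) for SLAMseq, which marks newly made RNA. The counts used here hold all reads of a gene, new and old RNA together. Each library came from 1 well. The labels call the wells a quadruplicate and do not say that they were independent cultures, so p-values measure the spread between these wells, which may be technical. A line cannot be told apart from its transduction, sorting, passage history and vector, since each line was made once.

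IGF2BP2 and IGF2BP3 belong to a family of RNA-binding proteins that bind messenger RNAs in the cytoplasm and affect their stability, location and translation. IGF2BP1 and IGF2BP3 are best known from the embryo and from tumours, while IGF2BP2 is also made in adult tissues. Guide RNAs direct Cas9 to matching DNA and do not cut DNA without it. A non-targeting siRNA has no intended target, but transfection exposes the cells to lipid and to foreign RNA, which can by themselves change transcripts.

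The designed difference between the lines lies in their guides, shown here 5′ to 3′ with the adjacent NGG motif that Cas9 needs in capitals.
IGF2BP3 guide 1: tggcaccgactgatagagctGGG
IGF2BP3 guide 2: gaagatactttctaggtccgAGG
IGF2BP2 guide 1: atatgtgacgttgacaacggCGG
IGF2BP2 guide 2: gtgcgctgaggttcaaccctGGG
The guides were read from the labels, and the motif from GENCODE release 29 transcripts (GRCh38). All 4 match coding sequence and read antisense to their gene. Guide 1 of IGF2BP3 lies in exon 11 of 15 at chr7:23319200-23319219, and guide 2 in exon 1 at chr7:23470045-23470064. Guide 1 of IGF2BP2 lies in exon 5 of 16 at chr3:185692722-185692741, and guide 2 in exon 10 at chr3:185672630-185672649.

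The 8 siControl libraries held between 1.02e+07 and 1.96e+07 counts. No 2 replicates under siControl or DMSO agreed within sampling noise (median chi-square per gene 2.196, range 1.69 to 4.85, where sampling noise alone gives about 1), so each counted as 1 sample. Of 15 colon epithelium markers, 5 were measurable under siControl, with summed levels of 257 to 263 CPM (counts scaled to a common library size) in sgIGF2BP2 and 263 to 278 CPM in sgIGF2BP3 libraries. The keratin gene KRT18 stood at 170 and 176 CPM and the intestinal transcription factor gene CDX2 at 18.5 and 19.4 CPM. VIL1, KRT20, CDX1 and CEACAM5, markers of differentiated colon cells, had no count, and CDH1 had at most 1. Markers of leukocytes summed to at most 3.81 CPM, almost all from CD68, those of fibroblasts to at most 0.782 CPM, and those of endothelium to at most 0.301 CPM. The blood cell marker PTPRC had no count in the 8 libraries.

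Few genes differed between the lines under the non-targeting siRNA. Of 11428 genes tested, 2 passed edgeR's quasi-likelihood test at a Benjamini-Hochberg adjusted p under 0.05 ("called", 0.0175%). MSN, the gene of the membrane linker moesin, was 1.82-fold lower in sgIGF2BP3 cells, and HMOX1, the gene of the heme-degrading enzyme heme oxygenase 1, was 1.18-fold higher. At an unadjusted p under 0.05 there were 674 genes (5.90%), 338 higher (2.96%) and 336 lower (2.94%). All 4 sgIGF2BP3 libraries lay above all 4 sgIGF2BP2 libraries for 266 genes (2.33%) and below them for 212 genes (1.86%). DESeq2 called the same 2 genes.

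How large a difference could have gone unseen depended on the level of the gene. Among the 8703 genes with a mean of at least 10 CPM, the 95% confidence interval of the line difference lay within a 1.5-fold change in either direction for 99.98%, and within 1.2-fold for 91.23%. Among the 2187 genes at 1 to under 10 CPM, 97.9% had an interval within 2-fold, 75.99% within 1.5-fold and 6.95% within 1.2-fold. For the 538 genes under 1 CPM, 41.82% were bounded within 2-fold and none within 1.5-fold. These intervals are not adjusted for the number of genes. The median size of the log2 difference over all tested genes was 0.048, against a median standard error (SE) of 0.065.

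**Figure D1:**
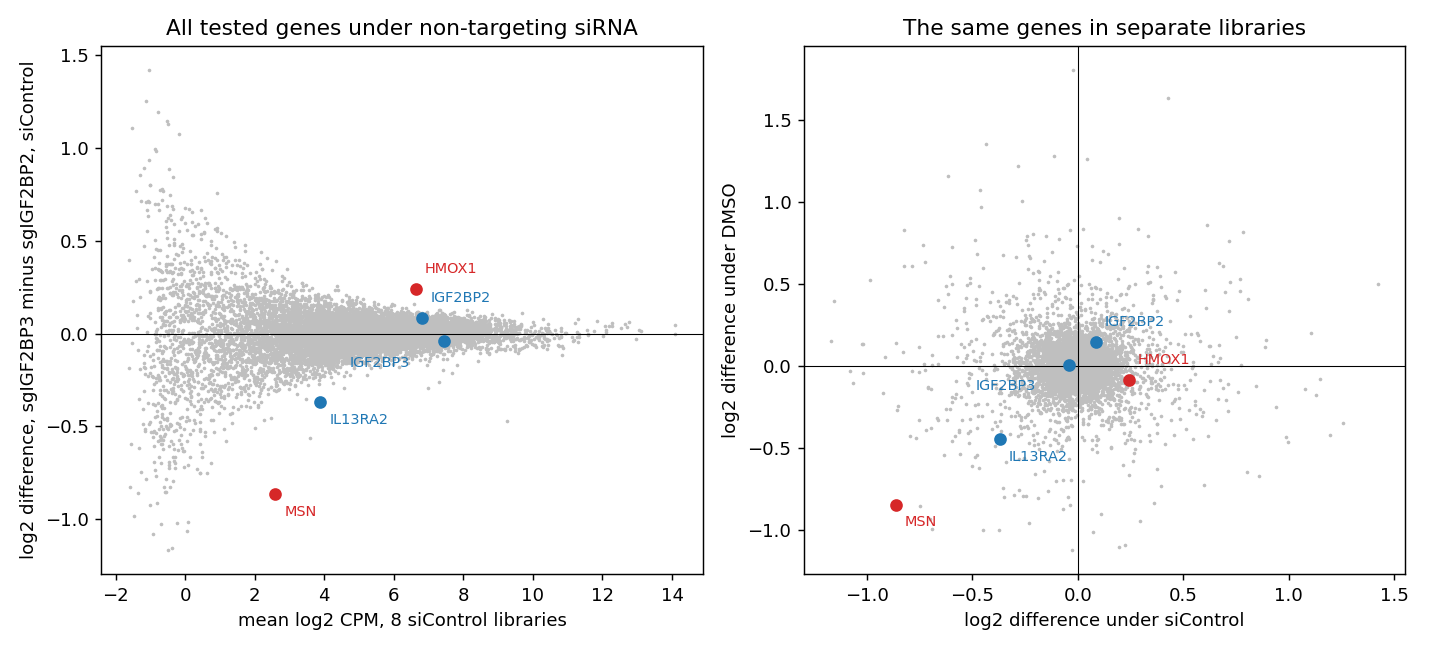
Left, log2 difference between sgIGF2BP3 and sgIGF2BP2 cells under non-targeting siRNA against the mean log2 CPM of the 8 libraries, 1 point per tested gene; right, the same difference against that under DMSO. Red points were called under siControl (MSN, −0.86, and HMOX1, 0.24) and blue points are named genes that were not. In the right panel MSN lies low on both axes. HMOX1 lies above 0 under siControl and slightly below 0 under DMSO (−0.084, not called). The cloud of genes has no slope.

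The guide targets were compared first. IGF2BP2 stood at 103, 109, 113 and 109 CPM in the 4 sgIGF2BP2 siControl libraries and at 118, 110, 116 and 116 CPM in the sgIGF2BP3 siControl libraries. The groups overlapped, with means of 108 ± 4.10 and 115 ± 3.15 CPM (SD, n = 4). The log2 difference was 0.084 (95% interval −0.0010 to 0.17), which was not called (edgeR adjusted p = 0.831). An exact two-sided permutation test gave p = 0.0571 (n = 4 and 4; 0.114 after Benjamini-Hochberg adjustment over 4 tests), where the smallest p that 4 against 4 allows is 0.0286. IGF2BP3 stood at 173, 171, 185 and 170 CPM in sgIGF2BP2 and at 168, 173, 164 and 174 CPM in sgIGF2BP3 siControl libraries. Its log2 difference was −0.041 (95% interval −0.12 to 0.039, edgeR adjusted p = 0.937; exact permutation p = 0.343, adjusted 0.457). Under DMSO IGF2BP2 was also higher in sgIGF2BP3 cells (85.3 ± 1.58 and 94.4 ± 2.43 CPM, SD), without overlap (edgeR adjusted p = 0.680; exact permutation p = 0.0286, the smallest possible, adjusted 0.114). Over 4 tests, a lone result at the smallest possible p adjusts to 0.114 and cannot pass 0.05, so that adjustment decides nothing here. The siControl and DMSO differences of IGF2BP2 were also averaged in 1 contrast, added after the data had been seen. The average was 0.115 (95% interval 0.054 to 0.176, not adjusted for the number of genes). This average was not called over all tested genes (edgeR adjusted p = 0.279). IGF2BP2 was somewhat lower in sgIGF2BP2 than in sgIGF2BP3 cells in these libraries. With DMSO, sgAAVS1 cells lay between the lines at 89.2 ± 3.74 CPM (SD, n = 4). Against them neither sgIGF2BP2 cells (−0.065, edgeR adjusted p = 0.843) nor sgIGF2BP3 cells (0.081, adjusted p = 0.466) were called. IGF2BP3 overlaps MALSU1 on the opposite strand, and whether the counting used strand is not given in the sources used here. IGF2BP1 had at most 1 count in any of the 40 libraries.

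MSN had the larger fold difference of the 2 called genes, and HMOX1 the smaller p. Moesin links the actin cortex to proteins of the plasma membrane and belongs to the ezrin, radixin and moesin (ERM) family. Its gene (ENSG00000147065) lies on the forward strand at chrX:65588377-65741931 in GRCh38. Under siControl MSN stood at 7.45, 6.43, 8.76 and 9.57 CPM in sgIGF2BP2 and at 5.37, 4.07, 5.07 and 3.29 CPM in sgIGF2BP3 libraries. Every sgIGF2BP3 library lay below every sgIGF2BP2 library. The means were 8.05 ± 1.39 and 4.45 ± 0.953 CPM (SD, n = 4), a log2 difference of −0.86 (SE 0.16, 95% interval −1.19 to −0.54, edgeR adjusted p = 0.00992). In bulk RNA, fewer cells with the transcript and less of it per cell cannot be told apart. The values rest on 98 to 146 reads in sgIGF2BP2 and 41 to 67 reads in sgIGF2BP3 libraries, and MSN has a processed pseudogene, MSNP1 on chromosome 5, so reads shared between the copies make its count uncertain. The call was lost without sgIGF2BP2 siControl replicate 3 or 4, or sgIGF2BP3 siControl replicate 2 or 4 (differences −0.82 to −0.75, edgeR adjusted p from 0.0962 to 0.208), and after thinning all libraries to the smallest total (−0.70, adjusted p = 0.699).

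The same difference appeared in the DMSO libraries, none of which entered the comparison above. MSN stood at 7.37, 7.21, 6.80 and 8.09 CPM in sgIGF2BP2 and at 4.07, 4.54, 3.82 and 3.79 CPM in sgIGF2BP3 DMSO libraries, again without overlap. The log2 difference was −0.84 (SE 0.16, edgeR adjusted p = 0.0256), and the siControl difference minus the DMSO difference was −0.019 (95% interval −0.49 to 0.45, adjusted p = 0.993). The DMSO call was lost when any 1 of the 8 DMSO libraries was left out, except sgIGF2BP2 replicate 2 (−0.91 to −0.80, edgeR adjusted p up to 0.151). With doxycycline the lowest sgIGF2BP2 library stood at 5.75 CPM and the highest sgIGF2BP3 library at 4.44 CPM. With the siRNA pool against each line's own target the corresponding values were 4.68 and 4.36 CPM. Within each of the 4 conditions, then, the 4 libraries of one line lay apart from the 4 of the other. With doxycycline and with the targeting pools, the line cannot be told apart from the loss of its own target. The 8 sgAAVS1 libraries ranged from 6.08 to 11.1 CPM. With DMSO, sgIGF2BP3 cells lay below sgAAVS1 cells on the log2 scale (−1.2, SE 0.16, edgeR adjusted p = 1.38e-06), while sgIGF2BP2 cells differed from them by −0.36 (SE 0.14, adjusted p = 0.749). These comparisons with sgAAVS1 share their DMSO libraries with the line difference under DMSO.

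**Figure D2:**
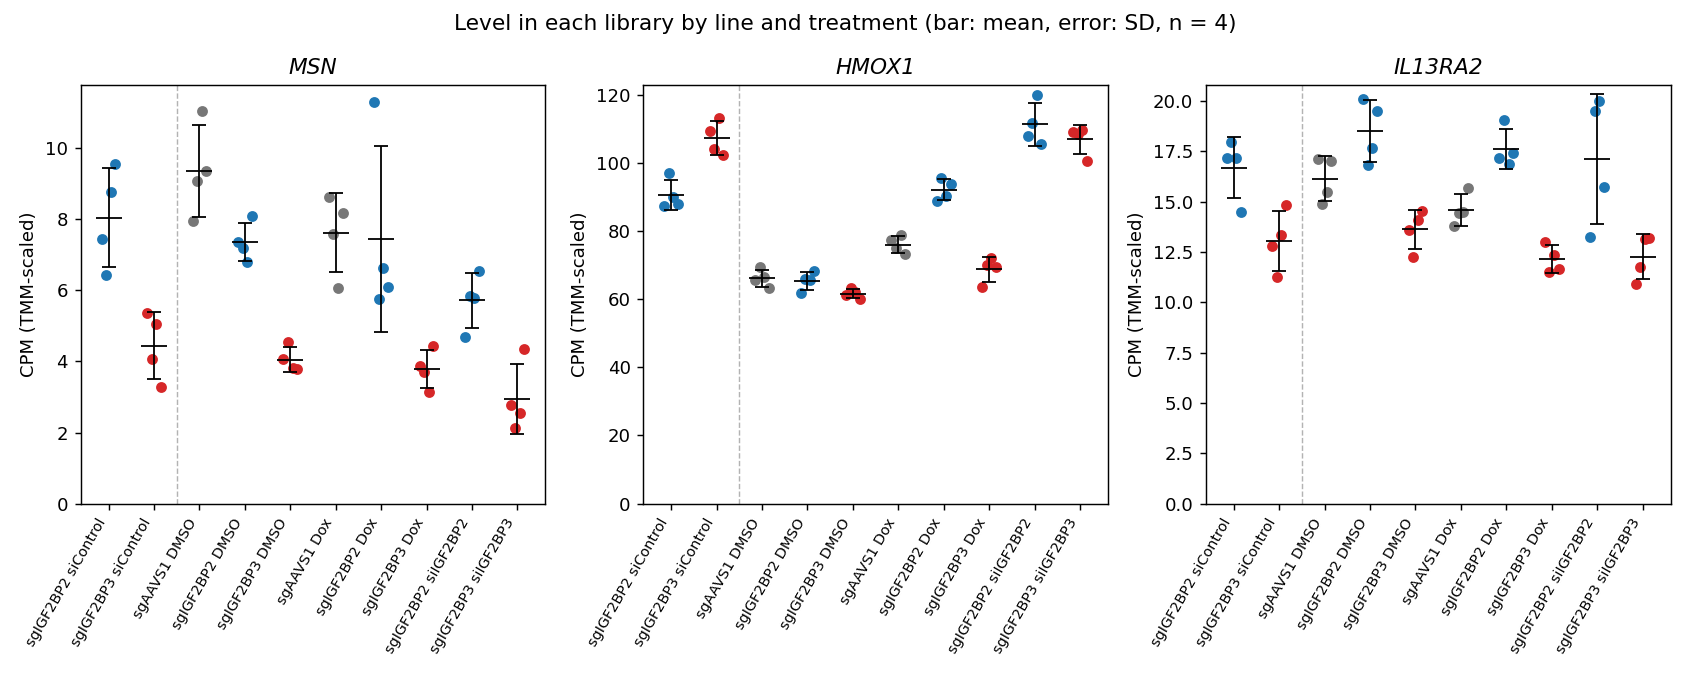
CPM of MSN, HMOX1 and IL13RA2 in each of the 40 libraries by line and treatment; points are libraries, bars the mean and SD (n = 4), and the dashed line parts the siControl groups from the rest. MSN is lower in sgIGF2BP3 than in sgIGF2BP2 cells within every condition. Over the 16 libraries of each line the ranges overlap (2.11 to 5.37 and 4.68 to 11.3 CPM). HMOX1 is higher in sgIGF2BP3 than in sgIGF2BP2 cells under siControl (107 against 90.7 CPM) and not under DMSO (61.7 against 65.4 CPM).

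The other genes of the ERM system, listed after MSN had been seen, are given beside it. Of 10 listed genes 8 were tested and MSN alone was called. EZR (ezrin) stood at 182 and 182 CPM, with a log2 difference of 0.0044 (SE 0.035). CD44, a cell surface receptor for hyaluronan that ERM proteins bind, differed by 0.00019 (SE 0.038), and NF2, the related tumour suppressor merlin, by −0.028 (SE 0.041). The scaffolds NHERF1 (0.044) and NHERF2 (−0.036) and the ERM kinases STK10 (−0.017) and SLK (−0.022) were not called, with edgeR adjusted p from 0.933 to 0.981. RDX (radixin) had no count in the 8 libraries. The 10 tested genes nearest to MSN on the X chromosome, among them LAS1L (−0.010), ranged from −0.19 to 0.12 on the log2 scale and none was called. No guide matched an MSN transcript with fewer than 6 mismatches, or an HMOX1 transcript with fewer than 7. The guide search covered annotated transcripts alone, so sites in introns, promoters and intergenic DNA were not searched.

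HMOX1 was the gene higher in sgIGF2BP3 cells. Heme oxygenase 1 breaks heme down to biliverdin, carbon monoxide and iron, and its gene is a standard target of the oxidative stress factor NRF2. HMOX1 (ENSG00000100292) lies on the forward strand at chr22:35380361-35394214. Under siControl it stood at 87.5, 97.0, 90.2 and 88.1 CPM in sgIGF2BP2 and at 110, 104, 113 and 102 CPM in sgIGF2BP3 libraries. The groups did not overlap. The means were 90.7 ± 4.34 and 107 ± 5.03 CPM (SD, n = 4), a log2 difference of 0.24 (SE 0.043, 95% interval 0.16 to 0.33, edgeR adjusted p = 0.00498). The call was lost without sgIGF2BP2 siControl replicate 4 (0.23, adjusted p = 0.0672) and without sgIGF2BP3 siControl replicate 3 (0.22, adjusted p = 0.0611).

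With DMSO the order was the other way round and not called. HMOX1 stood at 61.7, 65.9, 65.6 and 68.3 CPM in sgIGF2BP2 and at 61.2, 63.4, 62.2 and 60 CPM in sgIGF2BP3 DMSO libraries (log2 difference −0.084, SE 0.046, edgeR adjusted p = 0.870). The line difference under siControl exceeded that under DMSO by 0.33 (SE 0.063, 95% interval 0.20 to 0.45, edgeR adjusted p = 0.0288). HMOX1 was the 1 gene (0.00875%) called by this test of the difference, beside 590 (5.16%) at an unadjusted p under 0.05. Leaving out 1 library lost this call in 11 of 16 fits (0.30 to 0.33, edgeR adjusted p up to 0.244), and it held without sgIGF2BP2 siControl replicate 2, sgIGF2BP3 siControl replicates 2 and 4, sgIGF2BP2 DMSO replicate 1 and sgIGF2BP3 DMSO replicate 2. HMOX1 rose from DMSO to siControl in both lines, by 0.47 (SE 0.045, edgeR adjusted p = 2.95e-13) in sgIGF2BP2 and by 0.80 (SE 0.045, adjusted p = 1.61e-23) in sgIGF2BP3 cells. The remaining groups are given as values without a test. With doxycycline it averaged 92.3 ± 3.11 CPM in sgIGF2BP2, 68.8 ± 3.72 CPM in sgIGF2BP3 and 76.1 ± 2.48 CPM in sgAAVS1 cells (SD, n = 4). With the targeting siRNA pools it averaged 111 ± 6.23 CPM in sgIGF2BP2 and 107 ± 4.26 CPM in sgIGF2BP3 cells, and those groups overlapped.

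HMOX1 was the only called gene among 20 tested NRF2 and antioxidant genes, of which 15 were higher in sgIGF2BP3 cells under siControl (median log2 difference 0.037, against 0.00045 over all genes, of which 5732 were higher and 5696 lower). Under DMSO the median of the same list was −0.017. FTL, the light chain of the iron store ferritin, stood at 3571 ± 32.4 and 3750 ± 110 CPM (0.070, SE 0.037, edgeR adjusted p = 0.838). The glutathione synthesis gene GCLM differed by 0.12 (SE 0.070) and SRXN1, which repairs oxidised peroxiredoxins, by −0.31 (SE 0.21), neither called. NFE2L2, which encodes NRF2, differed by 0.038 (SE 0.056), and BACH1, the heme-sensing repressor of HMOX1, by −0.0015 (SE 0.071). Among 17 genes of heme handling, listed after HMOX1 had been seen, 14 were higher (median 0.044, under DMSO −6.2e-05) and HMOX1 alone was called. ALAS1, the first enzyme of heme synthesis, differed by 0.059 (SE 0.042), the heme transporter SLC48A1 by 0.20 (SE 0.066, adjusted p = 0.831), POR, the electron donor of heme oxygenase, by 0.093 (SE 0.042), and the constitutive HMOX2 by −0.12 (SE 0.069).

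IL13RA2 was called between the lines under DMSO and had the same sign under siControl. It encodes a receptor that binds interleukin 13 with high affinity and is often described as a decoy. Under siControl it stood at 17.1, 18.0, 17.2 and 14.5 CPM in sgIGF2BP2 and at 12.8, 11.2, 13.3 and 14.9 CPM in sgIGF2BP3 libraries. The lowest sgIGF2BP2 library lay below the highest sgIGF2BP3 library, and the log2 difference of −0.37 (SE 0.093) was not called (edgeR adjusted p = 0.366). Under DMSO the means were 18.5 ± 1.53 and 13.6 ± 0.984 CPM (SD, n = 4) without overlap, a log2 difference of −0.44 (SE 0.089, edgeR adjusted p = 0.0257). This call, too, was lost when any 1 DMSO library except sgIGF2BP2 replicate 2 was left out (−0.48 to −0.39, adjusted p up to 0.343). The difference between these differences was 0.074 (95% interval −0.18 to 0.33, adjusted p = 0.960). Over all 16 libraries of each line, IL13RA2 ranged from 13.2 to 20.1 CPM in sgIGF2BP2 and from 10.9 to 14.9 CPM in sgIGF2BP3 cells, with 13.8 to 17.1 CPM in the 8 sgAAVS1 libraries. The remaining 5 tested genes of interleukin 4 and 13 signalling, IL13RA1, IL4R, STAT6, JAK1 and TYK2, had siControl differences from 0.0055 (IL4R) to 0.069 (TYK2) and none was called. IL13RA2 lies on the reverse strand at chrX:115003975-115019977, far from MSN on the same chromosome, and no guide matched its transcripts with fewer than 7 mismatches.

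Across all tested genes the line difference under siControl and that under DMSO had little in common, and MSN alone was called in both. Under DMSO 2 genes were called (0.0175%), MSN and IL13RA2, both lower in sgIGF2BP3 cells, and 653 (5.71%) had an unadjusted p under 0.05. Across the 11428 genes, which are not independent replicates, the differences under siControl and under DMSO had Pearson's r of −0.00064 and Spearman's rho of 0.015, and 50.7% had the same sign. The 2 comparisons share no library. Their spread over genes was nearly equal, with SDs of 0.134 and 0.133 on the log2 scale. When the siControl and DMSO differences were averaged in 1 contrast, an analysis added after the data had been seen, 7 genes were called (0.0613%), all lower in sgIGF2BP3 cells, and 707 (6.19%) had an unadjusted p under 0.05. MSN (−0.85, SE 0.12, edgeR adjusted p = 3.887e-06) and IL13RA2 (−0.41, SE 0.064, adjusted p = 0.000153) led them. FNDC4, which encodes a fibronectin type III domain protein, differed by −0.35 (SE 0.076, edgeR adjusted p = 0.0246). The other 4 were MT-ATP8, RPL41, TMA7 and RPS25.

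MT-ATP8 and RPL41 followed HMOX1 and MSN in order of p under siControl. MT-ATP8 encodes a small subunit of the mitochondrial ATP synthase on the mitochondrial genome and shares bases with MT-ATP6. It stood at 597, 611, 903 and 797 CPM in sgIGF2BP2 and at 464, 462, 506 and 662 CPM in sgIGF2BP3 siControl libraries. The groups overlapped, and the log2 difference of −0.47 (SE 0.10) was not called (edgeR adjusted p = 0.0737). It was called in a fit of the 8 siControl libraries alone (edgeR adjusted p = 0.00378) and after thinning to the smallest total (0.0316). Calls were also made with the replicate number as a block, and without sgIGF2BP2 siControl replicate 1 or 2 or sgIGF2BP3 siControl replicate 4. Without a filter on low counts the edgeR adjusted p of MT-ATP8 was 5.85e-38, from the same overlapping groups. RPL41 and RPS25 encode ribosomal proteins, and TMA7 a small protein associated with translation. RPL41 stood at 132, 135, 151 and 147 CPM against 106, 101, 133 and 120 CPM (−0.30, SE 0.067, edgeR adjusted p = 0.103), and it was called in the 8 libraries alone (edgeR adjusted p = 0.00394), without the filter, with the block, and without sgIGF2BP2 siControl replicate 1 or sgIGF2BP3 siControl replicate 3. TMA7 differed by −0.19 (SE 0.049, adjusted p = 0.366) and RPS25 by −0.17 (SE 0.049, adjusted p = 0.738). In the remaining mitochondrially encoded genes the differences were smaller: MT-CO1, the most abundant, stood at 17500 ± 363 and 17470 ± 715 CPM, and MT-ND6, on the other strand of that genome, differed by −0.26 (SE 0.092, adjusted p = 0.831). Of the 13 mitochondrially encoded genes 7 were higher and 6 lower, and none was called.

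The longest GENCODE transcripts of MT-ATP8, RPL41 and TMA7 have 207, 699 and 688 bases, and that of RPS25 has 1462. A list of ribosomal protein genes and a grouping by transcript length were therefore added after the data had been seen. Of 82 tested ribosomal protein genes, 65 were lower and 17 higher in sgIGF2BP3 cells under siControl, with a median log2 difference of −0.037 (−0.063 under DMSO). The list holds RPL41 and RPS25, which prompted it, and paralogs such as RPS27L, so its shares are partly set by that choice. The lower genes made up 79.3% of the list, against 49.8% of all genes tested. None was called by edgeR, and 11 (13.4%) had an unadjusted p under 0.05, against 5.90% of all genes tested. Relative to the mean of the 16 siControl and DMSO libraries, the median of these genes lay between −0.065 and 0.0088 in sgIGF2BP2 and between −0.083 and −0.055 in sgIGF2BP3 siControl libraries, so the groups overlapped. Under DMSO it lay between 0.062 and 0.10 in sgIGF2BP2 and between 0.0026 and 0.036 in sgIGF2BP3 libraries, without overlap. Among genes of at least 10 CPM, the 53 with a longest transcript under 750 bases had a median difference of −0.020 (−0.049 under DMSO), and the 1792 with at least 6000 bases 0.0017 (0.023 under DMSO). In a fit with GC and length offsets HMOX1 and MSN were the only called genes, as in the main fit. With the replicate block added to those offsets HMOX1, MSN and MMP14 were called. None of the short genes was called in either fit. The main fit had called none of them, so the offsets alone could remove no call. The part of RNA quality in the values of these short genes was not tested.

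**Figure D3:**
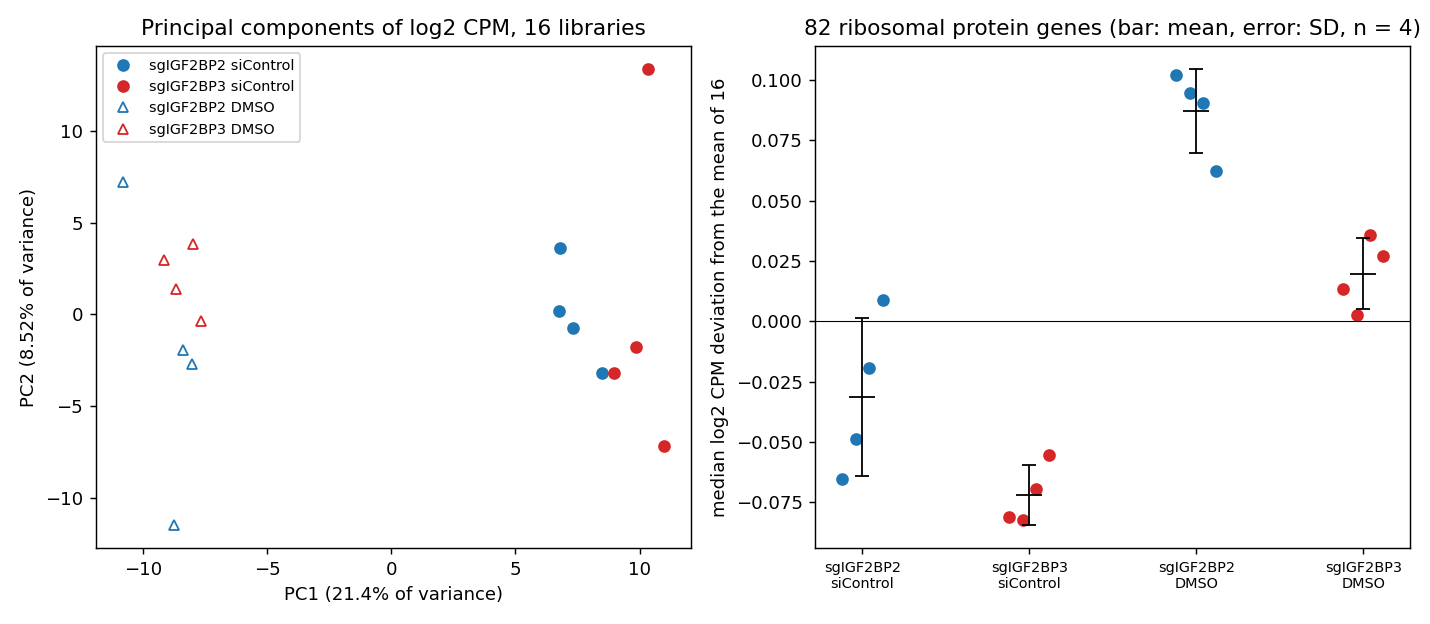
Left, the first 2 principal components of log2 CPM over the 16 siControl and DMSO libraries; right, the median log2 deviation of 82 ribosomal protein genes in each library from the mean of the 16, with mean and SD (n = 4). The siControl and DMSO libraries lie apart along the first component, and the ribosomal protein medians are lower in sgIGF2BP3 than in sgIGF2BP2 cells under DMSO without overlap and under siControl with overlap.

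The pathway lists, written from general knowledge with earlier results of these data known, covered 534 tested genes. Of these genes HMOX1 alone was called and 39 (7.30%) had an unadjusted p under 0.05, against 5.90% of all genes. Over the 26 lists with at least 5 tested genes, medians of the line difference ranged from −0.040 to 0.051 on the log2 scale under siControl and from −0.046 to 0.071 under DMSO, and 13 lists had the same sign in both. The list median farthest from 0 under siControl was a 1.04-fold change.

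The series concerns the unfolded protein response. None of 34 tested genes of the unfolded protein response was called, with 21 higher and 13 lower (median 0.011). The list held targets of XBP1 and ATF6 and also sensors such as ERN1 and EIF2AK3. The lumenal chaperone gene CALR stood at 1778 ± 25.2 and 1796 ± 30.0 CPM, and WFS1, a protein of the endoplasmic reticulum membrane, differed by 0.11 (SE 0.045, edgeR adjusted p = 0.831). Of 27 genes of the integrated stress response, 22 were higher and 5 lower (median 0.035, under DMSO −0.020), none called. Among these the amino acid transporter genes SLC7A5 (274 ± 2.47 and 294 ± 13.6 CPM) and SLC1A5 (464 ± 7.93 and 491 ± 15.1 CPM) were higher in all 4 sgIGF2BP3 libraries than in any sgIGF2BP2 library, with edgeR adjusted p of 0.831 each. Of 32 p53 targets 17 were higher and 15 lower (median 0.0023). CDKN1A, the cell cycle inhibitor p21, stood at 276 ± 6.07 and 278 ± 6.55 CPM. The ribosomal protein paralog RPS27L, another p53 target, differed by −0.18 (SE 0.058, adjusted p = 0.831).

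Growth and signalling genes were likewise uncalled. Of 36 feedback and immediate early genes of the MAPK pathway, 27 were lower and 9 higher in sgIGF2BP3 cells (median −0.040, under DMSO −0.0085). The lower genes were 75.0% of the list, against 49.8% of all genes tested, and 5 genes (13.9%) had an unadjusted p under 0.05, against 5.90% of all. DUSP6, the ERK phosphatase, stood at 91.0 ± 2.58 and 84.0 ± 1.27 CPM without overlap (−0.12, SE 0.043, edgeR adjusted p = 0.831), and under DMSO it differed by 0.081, the other way. EGR1 differed by −0.10 (SE 0.044) and JUN by −0.074 (SE 0.036). Of 34 genes of DNA replication and the G1/S transition 22 were higher (median 0.0063), and of 34 mitotic genes 21 were lower (median −0.0091). The proliferation marker MKI67 stood at 531 ± 6.25 and 543 ± 15.7 CPM. In the WNT list (12 tested, 6 higher and 6 lower) SOX9 had the largest difference, 1.88 ± 0.717 against 1.10 ± 0.297 CPM (−0.75, SE 0.28, adjusted p = 0.831). Of 30 cholesterol and fatty acid genes 15 were higher and 15 lower. SCD, the desaturase that makes monounsaturated fatty acids, stood at 448 ± 11.9 and 415 ± 11.3 CPM without overlap (−0.11, SE 0.032, adjusted p = 0.738).

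Genes that bear on siRNA handling were also compared, since both lines had been transfected. Of 17 tested genes of RNA interference and RNA sensing, 13 were higher and 4 lower in sgIGF2BP3 cells (median 0.035, under DMSO 0.032), none called. AGO2, the slicing Argonaute, stood at 356 ± 4.28 and 365 ± 3.94 CPM (0.037, SE 0.035), DICER1 differed by 0.10 (SE 0.053), and XPO5, the exporter of microRNA precursors, by 0.071 (SE 0.034, edgeR adjusted p = 0.831). Of 26 tested interferon response genes 17 were higher and 9 lower (median 0.016, under DMSO −0.036). BST2, which tethers budding viruses, stood at 383 ± 18.1 and 387 ± 12.6 CPM. Of 23 tested messenger RNAs reported as IGF2BP targets, 14 were higher and 9 lower (median 0.0079), none called, and 5 (21.7%) had an unadjusted p under 0.05, against 5.90% of all genes tested. Among them ACTB stood at 5875 ± 91.5 and 6000 ± 148 CPM, and MYC differed by −0.072 (SE 0.042).

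Line differences were also read along the chromosomes. In 1038 overlapping windows of 50 tested genes in genome order, the median difference under siControl ranged from −0.054 (chr19:51964343-55312533, ZNF350 to BRSK1) to 0.045 (chr16:46407-1770317, POLR3K to MAPK8IP3), so none reached 0.1 on the log2 scale. The same windows under DMSO had medians of −0.036 and −0.00063. Medians of whole chromosomes lay between −0.0145 (chromosome 13) and 0.0168 (chromosome 22). Chromosome 3, with IGF2BP2, had a median of 0.0017 and chromosome 7, with IGF2BP3, of 0.0014. Across windows, which overlap, Pearson's r between siControl and DMSO was −0.38.

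The size of the line difference can be read beside that of the transfection itself. From DMSO to siControl, 2101 genes (18.4%) were called in sgIGF2BP2 and 2222 (19.4%) in sgIGF2BP3 cells, of which 15 and 22 reached 2-fold. The lists shared 1274 genes, 60.6% of the first list and 57.3% of the second, and all 1274 moved the same way. Across genes the 2 transfection responses, which share no library, had Pearson's r of 0.54 and Spearman's rho of 0.59. The arms may also differ in handling and time in culture, which cannot be told apart from transfection. The first principal component of the 16 libraries (21.4% of variance) parted siControl from DMSO. On it the 4 sgIGF2BP3 siControl libraries (8.99 to 10.98) lay beyond the 4 sgIGF2BP2 siControl libraries (6.74 to 8.47), while the DMSO libraries of the lines overlapped (−10.8 to −8.02 in sgIGF2BP2 and −9.16 to −7.67 in sgIGF2BP3). The second component (8.52%) held lines and conditions together, with sgIGF2BP3 siControl spread from −7.20 to 13.4.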

How the data were processed

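The deposited values are raw read counts for each gene in 40 columns, 1 for each library. Per the submitters' processing notes, STAR 2.7.5c, bcl2fastq 2.20.0.422 and hg38 were used. The counting tool, annotation and strand setting are not given in the sources used here. The table lists 19962 genes, of which 19847 matched GENCODE release 29 by identifier. No row without a gene was found.

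Genes were filtered with edgeR's filterByExpr by group, which kept 11428 genes with 99.98% of counts, and scaled with TMM factors. edgeR 4.0.16 (R 4.3.3) fitted 1 coefficient per group to all 40 libraries without covariates (common biological coefficient of variation 3.79%), and glmQLFTest p-values were adjusted by Benjamini-Hochberg over all tested genes. A gene was called under 0.05. SE is the size of the log2 difference divided by the square root of F, and CPM uses TMM-scaled library sizes. DESeq2 1.42.0 was an alternative.

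Named genes were those called under siControl without overlap, if their mean log2 CPM reached 2, the called genes of each list, those called in the difference between conditions, and the IGF2BP genes. IL13RA2 and all further names were chosen after their values were seen. The members and lists were chosen with earlier results of these data known. Medians by chromosome stand in place of chromosome arms, whose bounds were not used here. Alternatives were other scalings, filters, library sets, thinning, GC and length offsets, a replicate block, a test against 1.2-fold, and leaving out each library.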

Additional observations from a re-analysis of the deposited data

Results flagged for a closer look

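The line difference in HMOX1 differed between conditions: the difference under siControl minus that under DMSO was 0.326 on the log2 scale (edgeR adjusted p = 0.0288). All 4 sgIGF2BP3 libraries lay above all 4 sgIGF2BP2 libraries under siControl, and the groups overlapped under DMSO.

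In 56 groups of 4 libraries checked for a library apart from the others, 2 were found. The groups were those of IGF2BP2, IGF2BP3 and the 12 genes with the smallest p under siControl. Chance alone gives about 1 in 20 for groups not chosen by their values, so that rate need not hold here. The splicing factor gene RBM22 stood at 75.4 CPM in sgIGF2BP3 DMSO replicate 1, against 78.3 to 78.5 CPM in the other 3. RALGPS1 stood at 4.89 CPM in sgIGF2BP3 siControl replicate 1, against 3.69 to 3.80 CPM in the other 3. Neither gene was called between the lines.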

How the results depend on the processing

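MSN stayed lower in sgIGF2BP3 cells under siControl in all 19 alternatives (−0.95 to −0.70) and HMOX1 higher (0.22 to 0.28). The MSN call was lost in 6 of them (adjusted p up to 0.699) and the HMOX1 call in 3 (adjusted p up to 1). MSN was lost without sgIGF2BP2 siControl replicate 3 or 4, without sgIGF2BP3 siControl replicate 2 or 4, after thinning, and in the test against 1.2-fold. HMOX1 was lost without sgIGF2BP2 siControl replicate 4, without sgIGF2BP3 siControl replicate 3, and against 1.2-fold. Under DMSO MSN (−0.91 to −0.80) and IL13RA2 (−0.48 to −0.39) each lost their call in 7 of 12 alternatives, all with 1 library left out, and the HMOX1 difference between conditions (0.30 to 0.36) in 11 of 20.

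The 2 genes called under siControl became 4 in a fit of the 8 siControl libraries alone (MT-ATP8 and RPL41 added), 13 without a filter on low counts, 0 against 1.2-fold (47 at an unadjusted p under 0.05) and 0 to 6 with 1 library left out. Without the filter MT-ATP8 had an edgeR adjusted p of 5.85e-38 and RPL41 of 2.69e-09, against 0.0737 and 0.103 in the main fit. Both genes had overlapping groups, so these small values are not read as stronger evidence. With the replicate block they became 5, MT-ATP8, RPL41 and TMA7 added. With that block and GC and length offsets they were 3, MMP14 added, and MT-ATP8, RPL41 and TMA7 were not called. Same-numbered wells were weakly correlated in their deviations under siControl (r 0.0121 to 0.0875), against −0.0566 to 0.0549 for differently numbered wells. Under DMSO same-numbered wells had r from −0.0118 to 0.0595. The main fit used no pairing. The count under DMSO ranged from 0 to 2 with 1 library left out, and that of the difference between conditions from 0 to 1, or 3 without the filter. The 1 called gene of the lists became 2 in the 8 libraries alone, after thinning, with the replicate block, and with that block and GC and length offsets, 4 without the filter, 0 against 1.2-fold, and 0 to 2 with 1 library left out. Windows of 25 genes had medians from −0.131 to 0.07, and windows of 100 genes a lowest median of −0.0327. The cause of these changes was not tested, except that fewer libraries or reads enter the fits with libraries left out or thinned. Genes under 1 CPM were too shallow for any difference under 1.5-fold to be bounded.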
